A study of Bos taurus with 12 samples.

Results

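The amino acid transporters counted in bovine expanded blastocysts were described across 11 RNA-seq libraries, 6 female and 5 male. They were taken as every gene of the count table whose symbol begins with SLC1A, SLC3A, SLC6A, SLC7A, SLC36A, SLC38A or SLC43A followed by a digit. The rule used names alone and no measured value, and it found 59 of 32637 genes, with 19 of the SLC6 family, 13 of SLC7, 11 of SLC38, 7 of SLC1, 4 of SLC36, 3 of SLC43 and 2 of SLC3. One of the 59, SLC7A6OS, lies beside SLC7A6 on the opposite strand and encodes a protein linked to the nuclear import of RNA polymerase II, so 58 are carriers by name. SLC43A3, by name a carrier of the same family as the leucine carriers SLC43A1 and SLC43A2, is best known for moving purine nucleobases.

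The embryos (Bos taurus) were fertilized in vitro, with oocytes from slaughterhouse ovaries and semen of 2 bulls used in rotation, and were collected on Day 7 or Day 8 once the blastocyst had expanded. Each was cut, one piece was sexed by PCR, and the other pieces were pooled, 2 embryos of one sex to a library, so that a replicate is a pool of 2 part-embryos holding inner cell mass, trophectoderm and zona pellucida. Neither sex received a treatment, the breed is not given in the sources used here, and which day, bull or week a pool came from is not in the labels. Pools are named here by sex and replicate number.

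Amino acid carriers are membrane proteins that differ in what they move and in what drives them. SLC1 and SLC38 carriers mostly use the sodium gradient, and some SLC36 carriers use protons. Many SLC7 proteins are light chains that reach the membrane only when joined to a heavy chain, SLC3A2 or SLC3A1. In preimplantation embryos this uptake is known to feed protein synthesis, cell volume control and the growth kinase complex mTORC1, which reads lysosomal amino acids in part through SLC38A9, and several carriers are known targets of ATF4, the transcription factor that is translated when amino acids run short.

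Library totals ran from 6664112 to 16162985 counts in females and from 9942952 to 21392764 in males. Male pool 5 had the most counts and the fewest genes with a count, 14937 against 16985 to 18550 in the other pools. Markers of the blastocyst lineages were counted in every pool. The summed level of 10 trophectoderm markers, such as KRT8 and GATA3, was 7879 to 23154 CPM in females and 9195 to 36145 CPM in males, and that of 6 inner cell mass markers 560 to 980 CPM and 792 to 1076 CPM. CPM are a library's counts scaled to a common total, here with the TMM factors of edgeR. The 7 cumulus cell markers summed to 7.19 to 32.7 CPM in females and 5.38 to 29.5 CPM in males, most of it FSHR, while FOXL2 and AMH were at 0.2 CPM or lower in every pool.

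Of the 59 genes, 31 had a count in every pool, 25 in some pools, and 3 in none. The 3 without a count were SLC1A7, a retinal glutamate carrier, SLC6A7, a brain proline carrier, and SLC6A18, a neutral amino acid carrier of the kidney. A count of 0 allows up to 3 counts in a library, or 0.140 to 0.450 CPM by library totals. This floor covers counting error alone, as PCR copies of a molecule were counted like separate ones. With all libraries thinned to the smallest total of 6664112, 30 genes were still counted in every pool. Between 43 and 47 of the 59 were counted in a female pool and between 40 and 48 in a male pool.

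Together the 59 genes took 1339 ± 178 CPM by library totals (SD, n = 6) of a female library and 1260 ± 203 (SD, n = 5) of a male library, and the ranges overlapped, with 1150 to 1664 in females and 963 to 1469 in males. Female pool 3 held the highest share and male pool 4 the lowest. A filter on low counts left 32 genes for testing, SLC7A6OS among them, and 27 below it. The 32 passed on their counts over all pools, so they are the better counted carriers and not all of them. No gene lengths over exons were at hand, so levels are compared between pools for each gene, and an order of genes by CPM serves only to choose which are named.

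**Figure D1:**
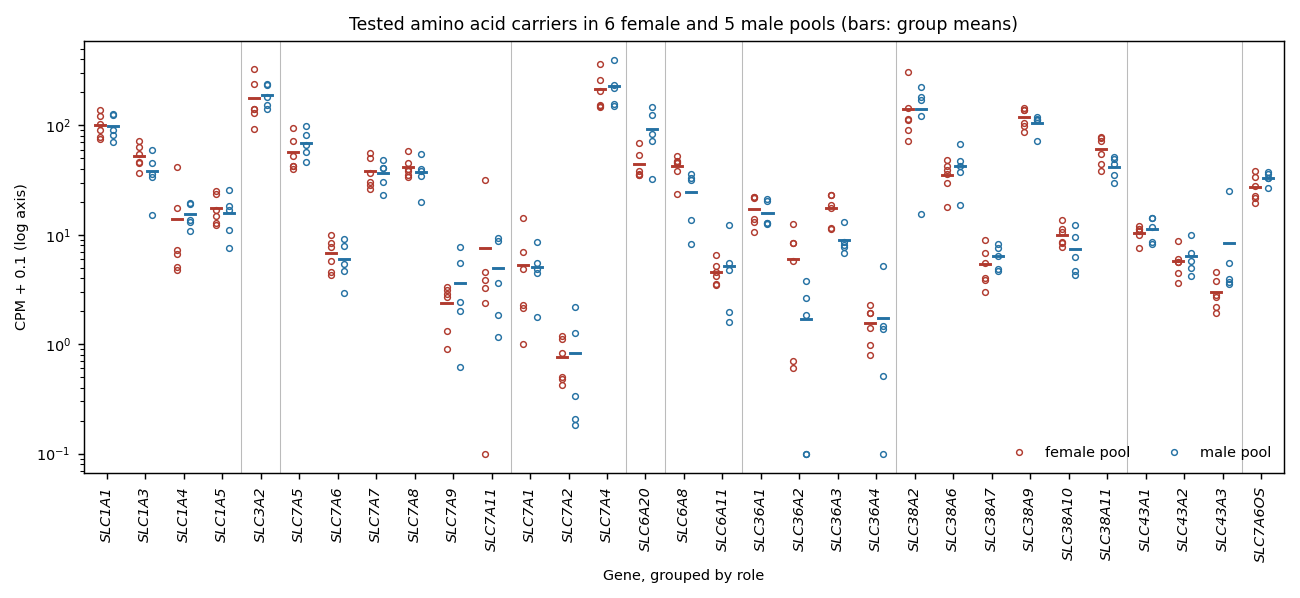
TMM-scaled CPM + 0.1 (log axis) of 31 tested genes in each of the 11 pools, with genes along the axis grouped by role, 6 female and 5 male points per gene and a short bar at each sex's mean. The points of the sexes overlap for every gene, and levels of different genes are not to be compared because they are not divided by length.

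The SLC1 carriers take up glutamate, aspartate or small neutral amino acids. SLC1A1, the glutamate and aspartate carrier EAAT3 (gene ID 282353, chr8:39927831-40003042), was counted at 75.1 to 138 CPM in females, with a median of 96.6, and at 128, 123, 82.3, 70.0 and 90.6 CPM in male pools 1 to 5. The sexes overlapped throughout, with means of 101 ± 24.6 CPM for the 6 females and 98.8 ± 25.6 CPM for the 5 males (± SD, as for all means below). SLC1A3, the glial-type glutamate carrier EAAT1, was at 36.7 to 71.1 CPM in females (median 50.1) and at 59.8, 33.3, 44.7, 36.1 and 15.1 CPM in males. Its lowest value was that of male pool 5. SLC1A5, the glutamine carrier ASCT2 (chr18:53864326-53875875), was at 12.3 to 25.2 CPM in females (median 15.7) and at 16.6, 18.3, 25.7, 7.47 and 11 CPM in males. SLC1A4, the alanine and serine carrier ASCT1 (chr11:63379682-63409620), had 1 pool far above the rest, female pool 3 at 41.5 CPM, with the other females at 4.65 to 17.5 CPM and the males at 13.6, 13.1, 19.2, 10.7 and 19.5 CPM. The neuronal carriers SLC1A2 and SLC1A6 were counted in some pools only, at 0.441 CPM or lower.

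Of the heavy chains, SLC3A2 (4F2hc, chr29:41158503-41199498) was counted in all pools and SLC3A1 (rBAT), the kidney and gut heavy chain, hardly at all. SLC3A2 was at 92.1 to 329 CPM in females, with a median of 141, and at 233, 237, 182, 141 and 154 CPM in males. Female pool 3 was highest and female pool 4 lowest, so the females spanned the whole range of the males. SLC3A1 reached 0.636 CPM at most, and 2276 of its bases are shared with PREPL, which held 2224 counts against 13 for SLC3A1.

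All 7 light chains that the table lists were counted in at least some pools, and 6 passed the filter. SLC7A5 (LAT1), the leucine carrier that pairs with SLC3A2, was at 39.5 to 94.1 CPM in females (median 46.9) and at 81.5, 46.0, 65.5, 56.7 and 97.8 CPM in males. SLC7A8 (LAT2) was at 33.7 to 58.0 CPM in females (median 39.2) and at 38.1, 54.3, 39.5, 34.6 and 19.6 CPM in males. SLC7A7, the cationic exchanger y+LAT1, was at 25.9 to 55.5 CPM in females and 23.1 to 48.1 CPM in males. These values overlapped between the sexes, and male pool 5 held the highest SLC7A5 and the lowest SLC7A8 and SLC7A7. SLC7A11 (xCT, chr17:19415087-19502270), which imports cystine for glutathione, was the least even of them, at 0 in female pool 1, 31.4 CPM in female pool 3, 2.28 to 4.50 CPM in the other females, and 1.74, 9.30, 8.63, 3.5 and 1.07 CPM in males. SLC7A6 (y+LAT2) was at 4.19 to 9.91 CPM in females and at 9.10, 5.28, 7.79, 4.53 and 2.86 CPM in males. It shares 921 bases with SLC7A6OS, which held 4203 counts against 852, and since no strand setting is given, reads from the overlap cannot be assigned with certainty. SLC7A9, the partner of SLC3A1 in the kidney, was at 0.799 to 3.2 CPM in females and 0.515 to 7.61 CPM in males, and the partner of SLC3A2 named SLC7A10 did not reach 10 counts in any pool.

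Among the SLC7 proteins that work without a heavy chain, SLC7A4 (chr17:72373077-72376837), which resembles the cationic carriers but whose transport is little known, was counted at 146 to 367 CPM in females, with a median of 180, and at 233, 218, 149, 158 and 391.7 CPM in males. Male pool 5, female pool 1 and female pool 6, at 258 CPM, were its 3 highest pools. The same 3 pools had the highest summed trophectoderm markers, at 36145, 23154 and 21586 CPM, and the part of lineage composition in this spread was not tested. In a bulk pool, fewer cells of a type and less RNA per cell cannot be told apart. SLC7A1 (CAT1), an arginine and lysine carrier, was at 0.914 to 14.1 CPM in females (median 3.46) and at 4.72, 1.69, 8.43, 4.37 and 5.43 CPM in males, with female pool 3 highest and female pool 1 lowest. SLC7A2 was at 0.326 to 1.10 CPM in females and 0.0827 to 2.08 CPM in males.

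The SLC6 family uses sodium and chloride, and many of its members are known from nerve endings. SLC6A20, a proline and imino acid carrier (chr22:53510219-53569209), was the only one of the 9 SLC6 amino acid carriers to pass the filter. It was at 34.7 to 69.3 CPM in females (median 36.7) and at 72.0, 123, 32.5, 83.4 and 147 CPM in males. Of the males, 4 were above every female, and male pool 3 was below every female. SLC6A8, the creatine carrier (chrX:36914289-36921866), was at 23.5 to 52.3 CPM in females (median 45.6) and at 36, 8.14, 31.5, 13.7 and 32.6 CPM in males. The lowest 2 pools were male, and female pool 6 lay among the males. SLC6A11, a GABA carrier, was at 3.34 to 6.47 CPM in females and 1.49 to 12.1 CPM in males. SLC6A6, the taurine carrier, reached 0.740 CPM at most, and none of the 3 monoamine carriers passed the filter.

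Some SLC36 carriers move small amino acids with protons, and all 4 members of the family passed the filter. SLC36A3 (chr7:62520734-62544639) was at 11.3 to 23.2 CPM in females (median 18) and at 8.52, 7.93, 7.60, 13.1 and 6.78 CPM in males. Of the females, 4 were above every male, and 4 of the 5 males were below every female. SLC36A2, its neighbour at chr7:62558340-62584878, was at 12.4, 5.64, 0.509, 8.25, 0.600 and 8.31 CPM in female pools 1 to 6 and at 1.74, 3.70, 0, 0 and 2.52 CPM in males. The same lncRNA gene, LOC132345774, overlaps both, with 117 counts over all pools against 1805 for SLC36A3 and 528 for SLC36A2. SLC36A1, which exports amino acids from lysosomes, was at 10.4 to 22.2 CPM in females and 12.3 to 21.1 CPM in males. SLC36A4 was at 0.700 to 2.20 CPM in females and at 0.414, 1.37, 1.29, 5.08 and 0 CPM in males.

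Of the 11 SLC38 carriers, 6 passed the filter. SLC38A2 (SNAT2, chr5:33850777-33865223), which brings in neutral amino acids and is known to be induced when they are scarce, was at 71.7 to 309 CPM in females (median 114) and at 169, 181, 224, 122 and 15.4 CPM in males. Female pool 3 was highest and male pool 5 lowest, 20 times apart, the widest ratio among the 10 carriers with the highest mean CPM. SLC38A1 (SNAT1), 55828 bases away on the same chromosome, was below the filter at 2.20 CPM or lower. SLC38A9, the lysosomal arginine sensor (chr20:23441411-23542902), was among the steadiest, at 86.3 to 145 CPM in females (median 121) and at 115, 118, 111, 111 and 71.8 CPM in males. SLC38A11 (chr2:31290079-31350209) was at 37.9 to 78.9 CPM in females (median 63.3) and at 51.6, 48.7, 29.6, 43.9 and 34.9 CPM in males. Its highest 4 pools were female. SLC38A6 was at 17.7 to 48.4 CPM in females and 18.8 to 68.1 CPM in males, SLC38A10 at 7.70 to 13.5 CPM and 4.21 to 12.2 CPM, and SLC38A7, a lysosomal glutamine carrier, at 2.89 to 8.91 CPM and 4.57 to 8.11 CPM.

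The SLC43 carriers of leucine overlapped between the sexes. SLC43A1 (LAT3) was at 7.46 to 11.8 CPM in females and 8.18 to 14.1 CPM in males, and SLC43A2 (LAT4) at 3.56 to 8.68 CPM and 4.13 to 9.88 CPM. SLC43A3 was at 1.85 to 4.47 CPM in females and at 5.46, 3.8, 3.6, 3.42 and 24.9 CPM in males, so that male pool 5 stood alone.

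The comparison of the sexes asked whether any carrier differed between male and female blastocysts. None of the 32 tested genes was called at a false discovery rate under 0.1 and a fold change over 1.5 by edgeR's quasi-likelihood test with the library number as a block, against 245 of 12802 tested genes, or 1.91%. An unadjusted p under 0.05 was reached by 4 of the 32, or 12.5%, against 13.2% of all tested genes. DESeq2 called 3 of them, SLC36A3 (adjusted p = 0.0289), SLC38A11 (adjusted p = 0.0816) and SLC6A20 (adjusted p = 0.0983). That is 9.38% of the 32, against 4.08% of the 15994 genes it tested. The 15994 include genes below the edgeR filter, while the 32 all passed it, so the shares are over unlike sets. In no tested carrier was every female pool above every male pool, or every male pool above every female pool, against 1.88% and 1.43% of tested genes. As many of the 32 were fitted higher in males as in females, 16 each, beside 50.5% higher in males over all tested genes, and the median log2 fold change was 0.00, with 0.01 over all tested genes.

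SLC36A3 had the smallest adjusted p, with a female mean of 17.5 ± 5.25 CPM, a male mean of 8.79 ± 2.50 CPM and a log2 fold change of -1.01 (SE 0.28, edgeR adjusted p = 0.133). Its difference within library numbers 1, 2 and 3 was -1.13, -1.17 and -0.80 on the log2 scale, lower in males in each. Without male pool 4, its highest male, it was called, at -1.21 (edgeR adjusted p = 0.0904), and it was called with no other pool left out. Its log2 fold change ran from -1.21 to -0.89 with each pool left out in turn. For SLC38A11 the log2 fold change was -0.61 (SE 0.18, edgeR adjusted p = 0.163), from 60.7 ± 17.5 CPM in females and 41.8 ± 9.29 CPM in males, and within library numbers it was -0.56, -0.64 and -0.64. SLC6A20 was at 44.4 ± 14.1 CPM in females and 91.5 ± 44.7 CPM in males (log2 fold change 0.85, SE 0.30, edgeR adjusted p = 0.246). Within library numbers its difference was 0.90, -0.18 and 1.39, so number 2, with a single male pool, went the other way. SLC43A3 was at 2.90 ± 1.0 CPM in females and 8.23 ± 9.33 CPM in males (log2 fold change 1.25, SE 0.50, edgeR adjusted p = 0.305), and without male pool 5 its log2 fold change was 0.53. Over the alternatives described below, adjusted p (edgeR or DESeq2) ran from 0.0289 to 0.350 for SLC36A3 and from 0.0816 to 0.394 for SLC38A11. It ran from 0.0103 to 0.503 for SLC6A20 and from 0.0960 to 0.592 for SLC43A3. SLC36A3 and SLC43A3 are given singly because they are among these 4 carriers, a choice made after their values were seen.

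SLC36A2 had the largest fitted difference of the 32, a log2 fold change of -2.33 (SE 1.10, edgeR adjusted p = 0.390), from 5.95 ± 4.71 CPM in females and 1.59 ± 1.61 CPM in males. It ran from -1.76 without male pool 3 to -3.36 without male pool 5, and with no filter on low counts it was called (edgeR adjusted p = 0.000412). It had no count in 2 male pools, and 2 female pools were below 1 CPM. SLC6A8 was at 42.0 ± 10.2 CPM in females and 24.4 ± 12.6 CPM in males (log2 fold change -0.72, SE 0.35, edgeR adjusted p = 0.413). Of the carriers best known from embryo work, SLC7A5 was at 56.8 ± 21.8 CPM in females and 69.5 ± 20.5 CPM in males and SLC3A2 at 179 ± 88.1 CPM and 189 ± 44.3 CPM. Their log2 fold changes were 0.34 (SE 0.27) and 0.11 (SE 0.31), differences under 2 standard errors that do not show the sexes to be alike.

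**Figure D2:**
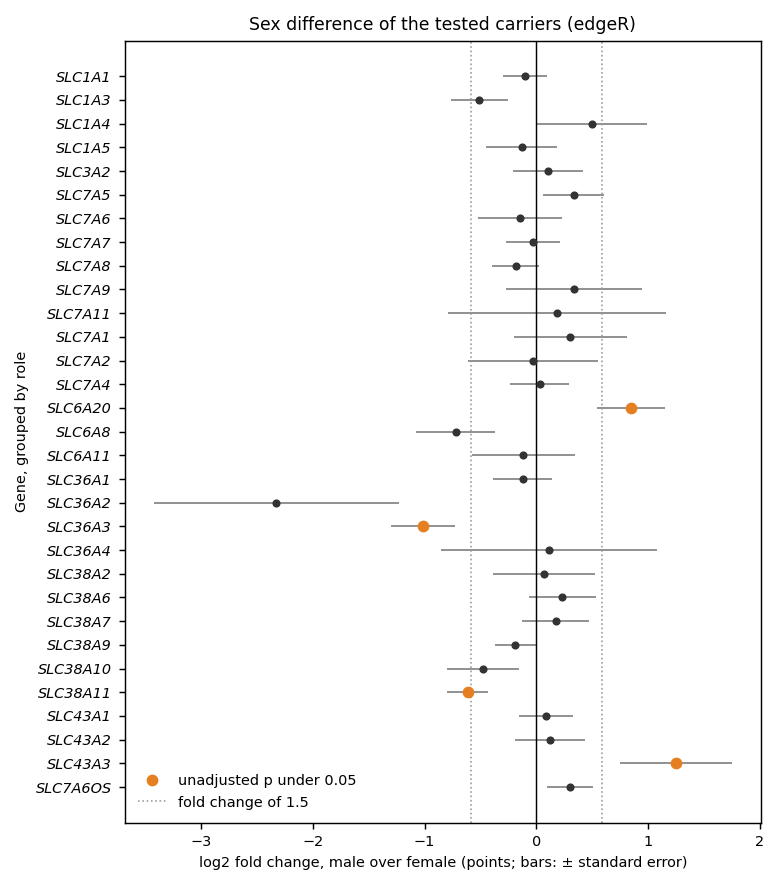
Log2 fold change of males over females for 31 tested genes, with bars of ± 1 standard error from the edgeR fit, dotted lines at a fold change of 1.5 in either direction, and orange points for the 4 genes with an unadjusted p under 0.05. The points lie on both sides of 0, with 16 above and 15 below, and SLC36A2 has the widest bar, with a standard error of 1.10.

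By role, no group had more than 1 gene with an unadjusted p under 0.05. Of the 4 SLC1 carriers tested, 3 were fitted lower in males and SLC1A4 higher. Among the 6 light chains 3 were higher and 3 lower, and among the 4 SLC36 carriers 3 were lower. The 3 SLC43 carriers were all fitted higher in males, by 0.09, 0.12 and 1.25 on the log2 scale for SLC43A1, SLC43A2 and SLC43A3, but without male pool 5 SLC43A1 and SLC43A2 were at -0.0095 and -0.14, and SLC43A1 at -0.042 without female pool 1. SLC6A8 and SLC6A11 had log2 fold changes of -0.72 and -0.12.

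Of the 27 genes below the filter, 24 had a count, and 11 of these reached 10 counts in a pool, among them SLC38A1, SLC38A3, SLC6A15, SLC6A16, SLC6A19, SLC6A4, SLC6A9 and SLC7A14. The other 3 of the 11 are X-linked, as is SLC6A8. SLC38A5 (SNAT5, chrX:86584142-86593293), a carrier of glutamine and glycine, was at 0.492 ± 0.333 CPM in females and 3.27 ± 4.79 CPM in males (two-sided exact permutation test, p = 0.0346). Male pool 2 alone was at 11.7 CPM, with 111 counts, and the other males at 0.414 to 2.46 CPM. By the same test p was 0.105 without male pool 2, and 0.0143 to 0.127 with each pool left out in turn. SLC6A14, a carrier of neutral and cationic amino acids, was at 0.846 ± 0.641 CPM in females and 0.148 ± 0.220 CPM in males, with 63 counts in all (two-sided exact permutation test, p = 0.0476, and 0.0159 to 0.0905 with each pool left out in turn). SLC7A3 (CAT3), an arginine carrier, was almost confined to 2 pools, male pool 2 with 5.18 CPM and female pool 6 with 1.70 CPM. SLC38A5 and SLC6A14 were the 2 carriers with an unadjusted p under 0.05 among the 24 tested this way. The smallest p that splits into 6 and 5 allow is 0.00216. No adjustment was made for the 24 tests, and the share over all genes below the filter is not given here. SLC6A9, the glycine carrier GLYT1, was at 1.6 CPM or lower, with 65 counts in all, and shares 5780 bases with KLF17, which held 2369 counts. SLC6A4, the serotonin carrier, held 65 counts and overlaps a lncRNA gene with 242.

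The labels name each library with a first number from 1 to 3, and what the number stands for is not given there. None of the 32 genes differed with it at a false discovery rate under 0.1 by edgeR's quasi-likelihood F test, against 0.00781% of tested genes. An unadjusted p under 0.05 was reached by 2 of the 32, SLC38A11 and SLC7A1, or 6.25%, against 6.93% of all tested genes. DESeq2's likelihood ratio test called 0, and its share over all genes is not given here.

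How far each carrier varied between pools was read beside the same measures over all tested genes. The coefficient of variation over the 11 pools had a median of 36.9% for the 32 genes and 34.7% for all 12802. Relative to the spread that edgeR fits for genes of the same abundance, the dispersion of the 32 had a median of 1.08, against 0.792 for all tested genes, and 18 of the 32, or 56.2%, were above that trend, against 32.0% of all. These shares describe the members and were not tested. The highest ratios were those of SLC36A2 at 4.46, SLC7A11 at 4.12, SLC38A2 at 3.75, SLC36A4 at 2.11 and SLC1A4 at 2.09. The lowest were those of SLC38A7 at 0.574, SLC43A1 at 0.575 and SLC43A2 at 0.638. The highest pool was over 2 times the lowest in 29 of the 32 genes and over 10 times in 9, counting 3 genes with a pool at 0 as over both.

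**Figure D3:**
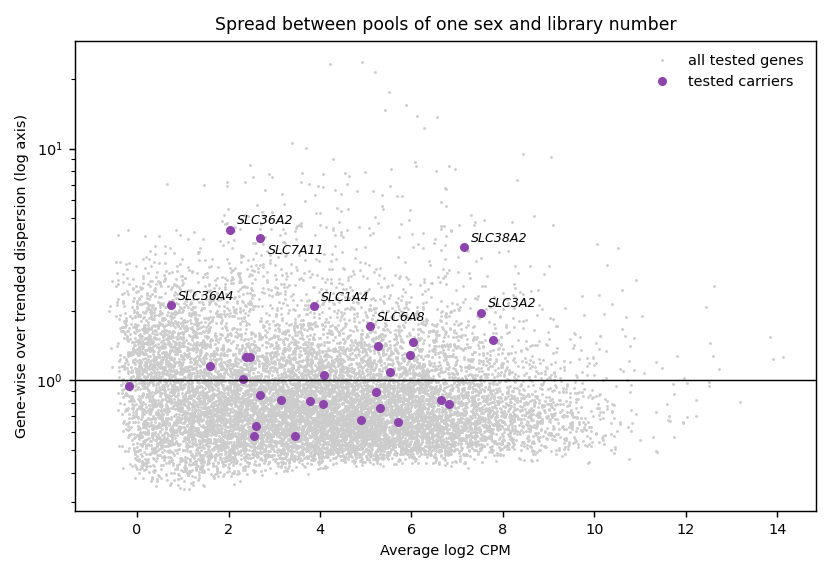
Gene-wise over trended dispersion (log axis), as edgeR fits it with sex and library number, against average log2 CPM, for all 12802 tested genes in grey and 31 of the carriers in purple, with the line at a ratio of 1. SLC36A2, SLC7A11 and SLC38A2 lie highest among the carriers, at 4.46, 4.12 and 3.75.

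The extremes of the carriers were spread over the pools unevenly. Female pool 3 held the highest value of 6 of the 32 genes, or 18.8%, against 9.32% of all tested genes. Female pool 1 also held that of 6, against 7.93%, and female pool 2 that of 4, or 12.5%, against 4.7%. Male pool 5 held the highest value of 8 and the lowest of 8, each 25% of the 32, beside 24.9% and 26.8% of all tested genes, so its share of extremes among the carriers was near the background.

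**Figure D4:**
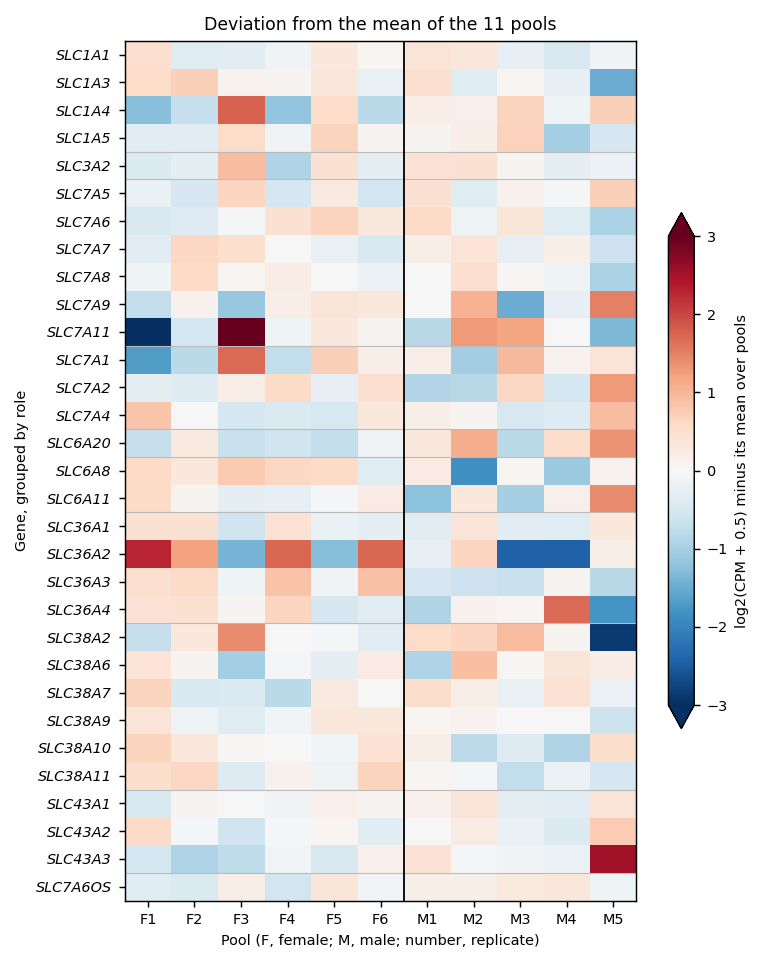
Deviation of log2(CPM + 0.5) of each of 31 tested genes in each pool from the gene's mean over the 11 pools, with genes grouped by role and pools by sex, red above and blue below the mean. Female pool 3 is red for SLC1A4, SLC3A2, SLC7A11, SLC7A1 and SLC38A2, and the same genes are blue in female pool 1.

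In female pool 3 the high carriers were largely ones known as ATF4 targets. SLC1A4, SLC3A2, SLC7A1, SLC7A11 and SLC38A2 were highest there, at 41.5, 329, 14.1, 31.4 and 309 CPM, with the next pool at 19.5, 239, 8.43, 9.30 and 224 CPM. SLC1A5, at 23.4 CPM, and SLC7A5, at 94.1 CPM, were above their means there but not highest. The other gene highest in that pool was SLC6A8, at 52.3 CPM. These 7 were grouped after their values were seen, so their common level is a description with no test. Their mean deviation, on the log2(CPM + 0.5) scale, was 1.43 in female pool 3, with 7 of 7 above their mean, and 0.67 in male pool 3, again 7 of 7. It was 0.42 in female pool 5, between -0.44 and 0.19 in the other males, and -0.23, -0.40, -0.51 and -1.08 in female pools 6, 2, 4 and 1. Female pool 3 and male pool 3 come from libraries with the same pair of numbers in their names, 2 and 1. What the numbers stand for is not given in the labels. Other pools sharing both numbers were female and male pool 1, at -1.08 and 0.15, and female and male pool 2, at -0.40 and 0.19. Female pool 5 and male pool 4 were at 0.42 and -0.19, and female pool 6 and male pool 5 at -0.23 and -0.44. Female pool 4, whose first number is also 2, was at -0.51. The other 25 genes, a remainder that the choice of the 7 helped to fix, were at -0.25 in female pool 3, -0.29 in male pool 3 and 0.22 in female pool 1, and had the same sign as the 7 in male pools 2 and 4.

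A list of ATF4 and genes of the amino acid response it drives, none of them a carrier of these families, was read beside the 7. Of its 18 tested genes, 8 were highest in female pool 3, a pool highest for 9.32% of all tested genes. That pool was among the 2 highest for 13 of the 18. In it 15 were above their mean, with a mean deviation of 0.73. Male pools 2, 3 and 5 had 14, 14 and 13 above their mean. Shares over all tested genes are not given here for the last 2 measures. The mRNA of ATF4 itself was at 464 CPM in female pool 3 and at 348 CPM or lower in the others. Its protein was not measured. PSAT1 and PHGDH, enzymes of serine synthesis, were at 297 and 149 CPM in female pool 3. Male pool 5 was almost level, at 292 and 148 CPM. ASNS, asparagine synthetase, was at 415 CPM in female pool 3, below male pool 3 at 509 CPM. Male pool 3 was next in the list's mean deviation at 0.47, then male pool 5 at 0.42, where the 7 carriers were at -0.44, and female pools 1, 4 and 2 were lowest at -0.57, -0.58 and -0.62. The lineage markers also moved in female pool 3, with the summed trophectoderm markers at their lowest, 7879 CPM, the inner cell mass markers at the highest female value, 980 CPM, and the 7 hypoblast markers at their highest, 621 CPM, against 208 to 470 CPM in the other pools. The part of ATF4 in the carriers' levels was not tested, nor was that of lineage composition.

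**Figure D5:**
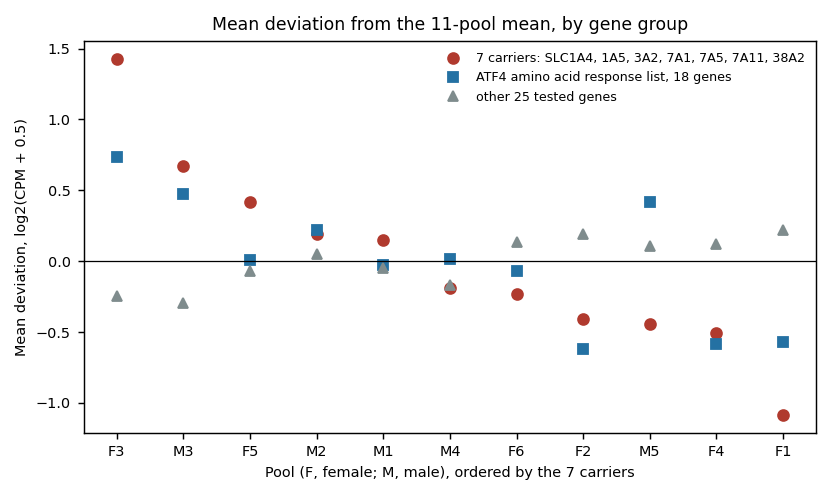
Mean deviation from the gene's mean over pools, in log2(CPM + 0.5), for the 7 carriers grouped after their values were seen, the 18 tested genes of the ATF4 response list and the other 25 carriers, in each of the 11 pools. The carriers reach 1.43 in female pool 3 and fall to -1.08 in female pool 1, the response list follows at 0.73 and -0.57, and male pool 5 has the 2 sets apart, at -0.44 and 0.42.

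Between the sexes, none of the 18 tested response genes was called, 5 had an unadjusted p under 0.05 by edgeR (TRIB3, ASNS, SHMT2, ALDH18A1 and PYCR1), or 27.8% against 13.2% of all tested genes, and DESeq2 called SHMT2, ALDH18A1 and PYCR1, or 16.7% against 4.08%. Of the 18, 14 were fitted higher in males, or 77.8% against 50.5%. The median over the list was 0.53 (log2) against 0.01 over all tested genes. This list was chosen with earlier results of these data known, so its shares are a description and no test. SHMT2 and the PYCRs are among the male-biased genes that the paper names. The 4.08% also covers genes below the edgeR filter. Among 39 tested genes of amino acid sensing by mTORC1, 1 was called, LAMTOR1, a scaffold of the lysosomal Ragulator complex that anchors the Rag GTPases. LAMTOR1 was at 47.2 to 86.7 CPM in females and 81.3 to 187 CPM in males, highest in male pool 5 (log2 fold change 0.75, SE 0.17, edgeR adjusted p = 0.068). That is 1 of 39 against 1.91% of tested genes, and 6 of the 39, or 15.4%, had an unadjusted p under 0.05, near the 13.2% of all tested genes.

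Of 24 further carriers of amino acids and peptides, mostly mitochondrial, vesicular or lysosomal, 23 were in the table and 15 passed the filter. None of the 15 was called by edgeR, against 1.91% of all tested genes. An unadjusted p under 0.05 was reached by 1, or 6.67%, against 13.2% of all tested genes. DESeq2, which called 4.08% of the genes it tested, called SFXN3, which is below the edgeR filter. SFXN3 held 154 of its 194 counts in male pool 5, at 7.46 CPM against 1.37 CPM or lower in the other pools (two-sided exact permutation test, p = 0.160). CTNS, the lysosomal cystine exporter, was at 17.7 to 65.3 CPM in females and 15.9 to 80.2 CPM in males, highest in male pool 5. Of 5 partners and regulators of carriers, 4 were tested and none was called by either tool, with no unadjusted p under 0.05. The shares over all genes to read beside these are the same 1.91%, 4.08% and 13.2%. SGK1, a kinase known to raise carrier abundance at the membrane, was at 198 to 301 CPM in females and 80.6 to 306 CPM in males, lowest in male pool 5.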

How the data were processed

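The 6 female and 5 male pools were sequenced from full-length cDNA (SMART-Seq HT PLUS). Per the submitters' processing notes and the study's methods, the authors used fastp 0.20.0 for trimming, STAR 2.7.10b for alignment to ARS-UCD 2.0 (up to 3 mismatches) and featureCounts for counts per gene. The deposited values are raw read counts per gene, whole numbers without normalization. How multiply mapped reads and strand were counted is not given in the sources used here. Gene IDs and positions were taken by symbol from RefSeq's ARS-UCD2.0 annotation (59 of 59 carriers matched).

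Genes that passed filterByExpr by sex (12802) were scaled by TMM and fitted in edgeR 4.0.16 with sex and library number (quasi-likelihood test, Benjamini-Hochberg over all tested genes, called where the FDR was below 0.1 with a change of over 1.5-fold). The common biological coefficient of variation was 0.403. Carriers below the filter were compared by two-sided exact permutation tests of mean CPM over the 462 splits. Whether pools came from separate cultures is not stated, so p-values measure the spread between these pools. Within a sex, log2 CPM correlated at 0.884 to 0.971 across genes, and no library was a copy of another.

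The library number was kept as a block in place of the collection week that the study modelled, which is not in the labels.

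Named genes are those called, the 10 with the highest mean CPM, X-linked members, the 5 highest and 3 lowest in dispersion over trend, 14 carriers known from embryo work, and members below the filter with 10 counts in a pool; the remaining tested members are given by their range, by role. The members and lists were chosen with earlier results of these data known. Alternatives covered the block, tool (DESeq2 1.42.0), scaling, filter, thresholds and each pool left out, and the fit was tested on simulated data. One tested member is in the counts and is not reported singly here. A sample of 4-cell embryos for Iso-seq was not used here.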

Additional observations from a re-analysis of the deposited data

Results flagged for a closer look

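Among the 23 tested carriers named, 46 groups of pools (a carrier in 1 sex) were checked for a pool far from the others, and 7 had one. In females it was pool 3 each time, for SLC1A4 at 41.5 CPM against 4.65 to 17.5 CPM in the other females, for SLC38A2 at 309 CPM against 71.7 to 143 CPM, and for SLC7A11 at 31.4 CPM against 0 to 4.50 CPM. In males it was pool 5 for SLC38A9, at 71.8 CPM against 111 to 118 CPM, and for SLC43A3, at 24.9 CPM against 3.42 to 5.46 CPM. It was male pool 4 for SLC36A3, at 13.1 CPM against 6.78 to 8.52 CPM, and for SLC36A4, at 5.08 CPM against 0 to 1.37 CPM. About 1 in 20 groups would be flagged by chance for carriers picked without regard to their values. SLC1A4, SLC7A11, SLC36A4 and SLC38A2 were among those named for high dispersion, and SLC36A3 and SLC43A3 after their values were seen. The 7 flags therefore cannot be set against that rate.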

How the results depend on the processing

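For the 23 tested carriers named, 437 alternative values of the sex difference were computed: 396 kept their direction and their side of the threshold, 9 passed it, and 32 over 10 carriers changed sign. The count of carriers called by sex was 0. It was 1 without the library number as a block, 3 by DESeq2, and 5 with no filter (SLC36A2, SLC36A3, SLC38A5, SLC43A3 and SLC6A20). With each pool left out it was 0 to 1, the 1 being SLC36A3 without male pool 4. Over all genes, 245 were called, and 652 by DESeq2, 743 with no filter, 125 at an FDR of 0.05, 62 by glmTreat, 368 without female pool 3 and male pool 5 (chosen after seeing the data), and 95 to 364 with each pool left out, under 245 by over 1.5 times without female pool 2, 4, 5 or 6 (105, 131, 110 and 148) or male pool 1, 2 or 3 (156, 114 and 95). By library number 0 carriers were called, 4 with no filter (SLC38A2, SLC7A11, SLC1A4 and SLC7A1) and 0 to 0 with each pool left out. The count over all genes by library number with no filter is not given here, so the 4 cannot be set against it. The cause was not tested. No other carrier was called without the block. Female and male libraries sharing the first number had r of -0.119 to 0.366 across genes over 10 pairs (median 0.0051), and the 5 of these pairs that share both numbers had a median of 0.26, against -0.046 for the other pairs. Since not every pair was above 0.1, no pairing was assumed.

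Signs changed with single pools left out, where log2 fold changes ran from -0.35 to 0.095 for SLC1A5, -1.41 to 0.50 for SLC36A4, -0.22 to 0.41 for SLC38A2, -0.029 to 0.35 for SLC3A2, -0.042 to 0.21 for SLC43A1, -0.14 to 0.27 for SLC43A2, -0.044 to 0.69 for SLC7A1, -0.50 to 0.83 for SLC7A11, -0.25 to 0.22 for SLC7A4 and -0.38 to 0.12 for SLC7A6. With a block of both library numbers they were -0.67 for SLC36A4 and -0.20 for SLC38A2. Without a block they were -0.066 for SLC7A1 and -0.65 for SLC7A11. Without female pool 3 and male pool 5 they were 0.047 for SLC1A5, -0.23 for SLC43A2, -0.28 for SLC7A4 and 0.051 for SLC7A6, and, with no change of sign, 0.63 for SLC38A2, 0.86 for SLC7A1 and 1.37 for SLC7A11. Leaving out pools gave 31 to 32 carriers counted in every pool, a median coefficient of variation of 34.8 to 38.7% and a median dispersion ratio of 0.982 to 1.15. Depth limits the carriers below about 1 CPM, where 3 counts are up to 0.450 CPM by library totals.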
